A study of Mus musculus with 3 samples.

Results

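The 31 genes described here act in the synthesis of cholesterol, in its control and in its transport, and were chosen by name as the members of these pathways. Of the 31 genes among 21887 coding genes, 20 had at least 1 region bound by Runx1 in any replicate. All 20 had one in replicate 3, where 31.5% of coding genes had one. A gene was counted where the authors' annotated table gave its symbol to a region. The assay was ChIP-seq (chromatin immunoprecipitation followed by sequencing), which recovers DNA fragments held by an antibody, here a rabbit polyclonal antibody against Runx1, a transcription factor of blood and myeloid cells. The chromatin came from spinal cord cells of male C57BL/6J mice aged 8 to 10 weeks, with 10 cords pooled for each immunoprecipitation, about 10 µg of chromatin and 9 µg of antibody. The series holds 3 replicates of this 1 group, with no other genotype or treatment named in the labels, and nothing states how animals were divided among them. Cells of all types in the cord were pooled, so the share of cells with Runx1 at a site and the amount bound per cell cannot be told apart.

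Cholesterol hardly crosses from the blood into the central nervous system, and nervous tissue makes its own, with oligodendrocytes using large amounts for myelin. Synthesis runs from acetyl-CoA through mevalonate to farnesyl diphosphate, then through squalene and lanosterol to cholesterol. SREBP transcription factors, held in the endoplasmic reticulum by Scap and Insig proteins when sterol is plentiful, raise the genes of synthesis when sterol is low. Liver X receptors respond to oxidised sterols and raise the transporters that export cholesterol, a route that microglia and macrophages use after taking up myelin.

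The replicates differed greatly in length of list, which bears on every count below. Replicates 1, 2 and 3 had 451, 1641 and 13194 regions, with median folds over background of 4.86, 4.01 and 3.81. The labels and files state no read totals. At the regions of the 31 genes, the deposited values correspond to 14 to 21 fragments at the strongest summit in replicate 2 and 13 to 60 in replicate 3, over background levels of 3.33 to 5.35 and 3.55 to 12.3 fragments. Among genes that mark cell types, regions were assigned in replicates 1, 2 and 3 to 0, 8 and 10 of 10 oligodendrocyte genes, 1, 2 and 6 of 6 neuronal genes, 0, 0 and 3 of 6 astrocyte genes, 0, 1 and 2 of 8 microglial genes and 0, 0 and 0 of 4 endothelial genes. Of all coding genes, 1.51%, 5.17% and 31.5% had a region in replicates 1, 2 and 3. The part of these cell types in the results on cholesterol genes was not tested.

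Runx1 regions lay at most genes of cholesterol synthesis in replicate 3, at 3 of the 31 genes in replicate 2 and at 0 in replicate 1. Replicate 3 had a region at 20 of the 31 genes (64.5%, 95% Wilson interval 46.9 to 78.9), against 31.5% of all coding genes. Replicate 2 had a region at 3 of them, Idi1, Fdft1 and Srebf2 (9.68%, interval 3.35 to 24.9), against 5.17% of coding genes. Replicate 1 had 0 of 31 (interval 0 to 11.0), against 1.51% of coding genes. Over the replicates the share was 24.7% ± 34.8 (SD, n = 3), a spread larger than the mean. The same 3 genes were those with a region in at least 2 replicates (9.68%), against 5.43% of coding genes, and 0 genes had an assigned region in all 3, against 0.836%. The share was below that of all coding genes in replicate 1, on 0 genes. It was above it in replicate 2, on 3 genes, and in replicate 3, on 20. The intervals treat genes as independent within a list and do not measure the spread between replicates. They are descriptive, since the genes were chosen with earlier results of these data known. The median gene length was 18769 bp for the 31 genes and 17169 bp for all coding genes. A part of length, of expression in the cord or of promoter sequence in these counts was not tested.

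The count in replicate 3 depended on how many regions were admitted. With regions of a q of at most 1e-05, 17 of the 31 genes kept a region, against 22.0% of coding genes. At a fold of at least 5, the counts were 0, 0 and 5 of 31 in replicates 1, 2 and 3, against 0.713%, 0.882% and 8.49% of coding genes. With each list shortened to its 451 regions with the smallest q, 0, 0 and 1 of the 31 genes had a region, against 1.51%, 1.49% and 1.52% of coding genes, and the gene was Cyp51. The share of cholesterol genes in replicate 3 was above that of coding genes at each of these limits, but on few genes at the stricter ones. At a fold of at least 5 it rested on 5 genes (16.1%, interval 7.09 to 32.6, against 8.49%), and at the last limit on 1.

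**Figure D1:**
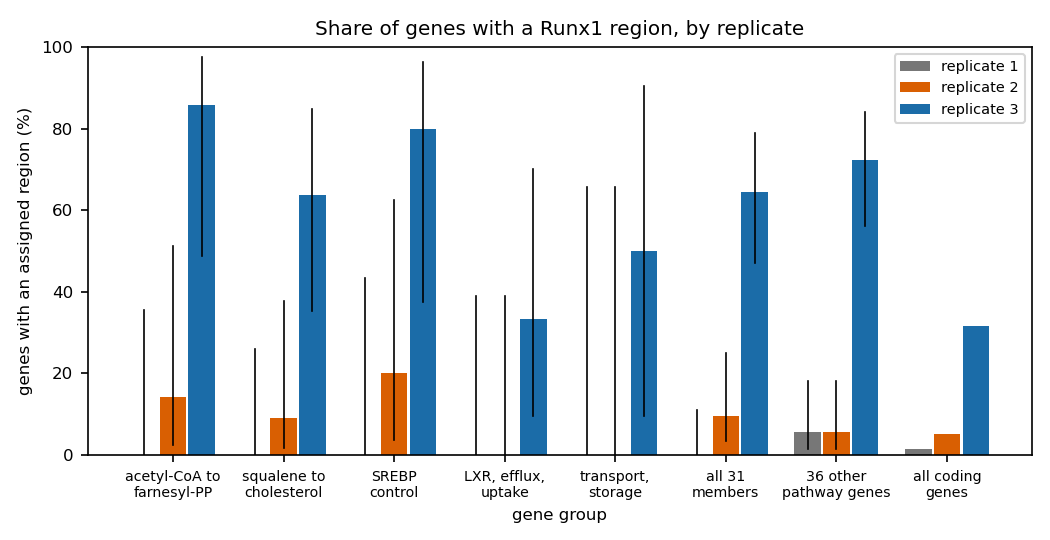
Percentage of genes with at least 1 assigned region in replicates 1, 2 and 3 (grey, orange and blue bars), for each role group of the 31 cholesterol genes, for all 31, for 36 other genes of sterol and lipid metabolism and for all coding genes. Vertical lines are 95% Wilson intervals; in replicate 3 all 31 members stood at 64.5% and all coding genes at 31.5%.

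By role, the share in replicate 3 was 6 of 7 genes from acetyl-CoA to farnesyl diphosphate, 7 of 11 from squalene to cholesterol, 4 of 5 genes of SREBP control, 2 of 6 genes of liver X receptors, efflux and uptake, and 1 of 2 genes of intracellular transport and storage. Of all coding genes, 31.5% had a region in replicate 3. Together the enzymes of synthesis had 13 of 18 (72.2%, interval 49.1 to 87.5) and the other members 7 of 13 (53.8%, interval 29.1 to 76.8). The intervals overlapped widely. Counting only promoter-class regions (within 1 kb of a start) gave 0, 2 and 18 of the 31 genes in replicates 1, 2 and 3, against 1.38%, 4.35% and 28.4% of coding genes.

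The promoters below are those of the members whose 300-base RefSeq window (250 bases before to 50 after the start, GRCm38.p6) lay wholly within promoter-class regions in the most replicates, with ties broken by the percentile of the gene's strongest region in replicate 3 and the first 5 shown. Windows of Acat2, Dhcr7, Hmgcs1, Msmo1 and Srebf2 also lay within regions of replicate 3 and are not shown. The sequences show the part of each region that lies in this window, written 5′ to 3′ on the strand of the gene. The regions extend beyond it, and sequence outside it was not scanned. Capitals mark matches on either strand to GGGCGG (the box of SP and KLF factors), CCAAT (bound by NF-Y, a partner of SREBP) and CACGTG (the E-box); no match overlapped another. The Idi1 window lay within regions of 2 replicates, and the others within a region of replicate 3.
Idi1 (chr13:8885356-8885655, plus strand): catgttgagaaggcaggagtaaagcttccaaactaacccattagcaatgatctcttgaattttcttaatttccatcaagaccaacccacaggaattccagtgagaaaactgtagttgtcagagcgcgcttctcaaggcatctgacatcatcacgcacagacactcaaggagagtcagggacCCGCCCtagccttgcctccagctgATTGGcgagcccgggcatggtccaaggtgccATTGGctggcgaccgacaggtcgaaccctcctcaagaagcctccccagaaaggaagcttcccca
Cyp51 (chr5:4104648-4104947, minus strand): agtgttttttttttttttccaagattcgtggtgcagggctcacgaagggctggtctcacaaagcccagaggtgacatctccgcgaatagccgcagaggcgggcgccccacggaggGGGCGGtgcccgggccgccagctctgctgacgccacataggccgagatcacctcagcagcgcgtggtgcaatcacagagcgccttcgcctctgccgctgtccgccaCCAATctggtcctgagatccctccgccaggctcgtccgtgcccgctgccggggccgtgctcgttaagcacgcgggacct
Mvd (chr8:122443373-122443672, minus strand): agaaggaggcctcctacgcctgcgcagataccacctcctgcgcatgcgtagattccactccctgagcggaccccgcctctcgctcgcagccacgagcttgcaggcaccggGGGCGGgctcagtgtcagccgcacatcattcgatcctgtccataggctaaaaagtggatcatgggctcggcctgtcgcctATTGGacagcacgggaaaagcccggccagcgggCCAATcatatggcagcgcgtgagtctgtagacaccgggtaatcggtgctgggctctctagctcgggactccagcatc
Insig1 (chr5:28071162-28071461, plus strand): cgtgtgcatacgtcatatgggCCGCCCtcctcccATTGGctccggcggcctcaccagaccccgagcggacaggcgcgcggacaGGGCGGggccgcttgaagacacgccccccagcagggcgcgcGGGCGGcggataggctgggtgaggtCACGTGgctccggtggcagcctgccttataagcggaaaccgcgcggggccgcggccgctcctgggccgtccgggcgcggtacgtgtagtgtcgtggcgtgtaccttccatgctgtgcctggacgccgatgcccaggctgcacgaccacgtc
Mvk (chr5:114444019-114444318, plus strand): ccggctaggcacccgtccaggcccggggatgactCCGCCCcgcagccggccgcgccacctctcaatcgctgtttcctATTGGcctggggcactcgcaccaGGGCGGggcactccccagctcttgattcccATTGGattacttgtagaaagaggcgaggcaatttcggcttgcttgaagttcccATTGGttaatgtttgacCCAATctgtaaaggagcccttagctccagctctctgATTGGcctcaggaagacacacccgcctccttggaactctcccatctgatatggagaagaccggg

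All 5 windows held boxes for NF-Y and for SP and KLF factors, and none held a RUNX hexamer. The strongest summits of Cyp51 (4104630) and Idi1 (8885683) in replicate 3 lay outside their windows, and sequence there was not scanned. CCAAT matched 2, 1, 2, 1 and 5 times in the windows of Idi1, Cyp51, Mvd, Insig1 and Mvk, and GGGCGG matched 1, 1, 1, 3 and 2 times. Windows were found for 26 of the 31 members, 35 in all because some genes have several starts. CCAAT was present in 21 of the 35 windows, against 37.4% of all 32851 promoters, and GGGCGG in 27 (77.1%), against 35.7%. Inside regions of replicate 3, GGGCGG was in 10 of the 10 member windows, against 69.4% of all promoters there, and CCAAT in 8, against 43.5%. TGTGGT or TGCGGT, forms of the RUNX site, was present in 3 (8.57%), against 22.4% of all promoters. Of the 10 member windows inside a region of replicate 3, 1 held such a hexamer (10.0%), against 21.7% of the 2871 promoters of any gene inside one. That window belonged to Acat2, and the other matches were in Lss and Pmvk, which had no assigned region. The shorter core TGTGG was present in 18 of the 35 windows (51.4%), against 55.9% of all promoters. A sterol response element, TCACNCCAC, was found in 1 member window, that of Hmgcs1, as TCACCCCAC starting 137 bases before the start site, against 1.24% of all promoters. The E-box was present in 7 windows (20.0%), against 7.15% of all promoters, and in the longer form GTCACGTG in 3 (8.57%), against 2.25%. The 7 windows belonged to 6 of the 26 genes, since 2 overlapping windows of Scap held the same site. Inside regions of replicate 3, the E-box was in 1 of the 10 member windows (10.0%), against 15.2% of all promoters there. Each match is a description of the reference sequence in this window only.

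Among the enzymes that build farnesyl diphosphate, Idi1 had overlapping promoter regions in 2 replicates. Idi1 (ENSMUSG00000058258) encodes isopentenyl-diphosphate isomerase, which interconverts the activated isoprene units. Its region on chromosome 13 ran from 8885278 to 8885736 in replicate 2 and from 8885306 to 8886052 in replicate 3 (GRCm38), a common stretch of 431 bp over the start site. The authors' fold at the strongest summit was 3.70 in replicate 2 (17 fragments) and 6.17 in replicate 3 (50 fragments), at the 33.5 and 91.1 percentiles by fold within each list, and replicate 1 had no region there. The 2 summits lay 227 bp apart, at 45 bp before and 182 bp after the assigned start. The fold of Idi1 was thus in the lower part of the list of replicate 2 and in the upper part of that of replicate 3.

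Mvd, which encodes the decarboxylase that makes isopentenyl diphosphate, had the highest fold of this group in replicate 3. The stronger of its promoter regions (chromosome 8, 122443268 to 122443920) reached a fold of 6.58 from 49 fragments (counting interval 4.90 to 8.65) at the 93.3 percentile, and a second region upstream had a fold of 3.49. The transcript 9330133O14Rik is annotated within 1 kb of both regions, so the authors' assignment to Mvd is not the only one possible. Hmgcs1, the cytosolic HMG-CoA synthase, had 4 regions in replicate 3 along its promoter and an intron, all weak, with folds of 2.68, 3.19, 2.90 and 3.08 and none above the 23.6 percentile. Acat2, which condenses acetyl-CoA units, and Fdps, the farnesyl diphosphate synthase, each had a promoter region in replicate 3, with folds of 3.81 and 3.55. Mvk, mevalonate kinase, was given 2 distal regions, 14942 and 37231 bp downstream of the start of the assigned transcript (114452420, inside the RefSeq gene, which starts at 114444264), with folds of 4.38 and 2.97. Pmvk, phosphomevalonate kinase, had no region in any replicate.

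Among the enzymes from squalene to cholesterol, Cyp51 carried the strongest region of all 31 genes. Cyp51 (ENSMUSG00000001467) encodes the demethylase of lanosterol. The main promoter region (chromosome 5, 4104096 to 4104985) reached a fold of 7.55 in replicate 3, from 60 fragments over a background of 7.08 (counting interval 5.79 to 9.69), a −log10 q of 30.5 and the 96.1 percentile. A weaker region beside it (4103438 to 4103725) had a fold of 3.15, and neither region overlapped one in replicates 1 or 2. Fdft1, squalene synthase, was the only enzyme of this group with regions in 2 replicates, but they did not overlap. Replicate 2 had a fold of 3.46 on chromosome 14 (63176376 to 63176661), and replicate 3 had folds of 3.36 (63175926 to 63176154) and 3.66 (63177811 to 63178360). The Fdft1 folds came from 14, 20 and 32 fragments and lay at or below the 44.1 percentile of their lists.

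The remaining enzymes of this group with regions had them in replicate 3. Sqle, squalene monooxygenase, a rate-limiting step, had a promoter region of 1254 bp with 3 summits and a fold of 4.78 (75.7 percentile; chromosome 15, 59314497 to 59315750), and a second region 2257 bp downstream of the start with a fold of 3.03. Hsd17b7, the keto-reductase of sterol demethylation, had a fold of 4.21. Dhcr7, the reductase that finishes cholesterol, had 2 regions at separate start sites, with folds of 3.97 and 4.10. Msmo1, the methylsterol monooxygenase, and Sc5d, a sterol desaturase, had the lowest folds of the group's strongest regions, 3.16 and 2.94. No region was assigned in any replicate to Lss (lanosterol synthase), Tm7sf2 (a sterol reductase), Nsdhl (a sterol dehydrogenase) or Ebp (a sterol isomerase). Of the 11 enzymes from squalene to cholesterol, 7 thus had a region (63.6%, against 31.5% of coding genes in replicate 3) and 4 had none.

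**Figure D2:**
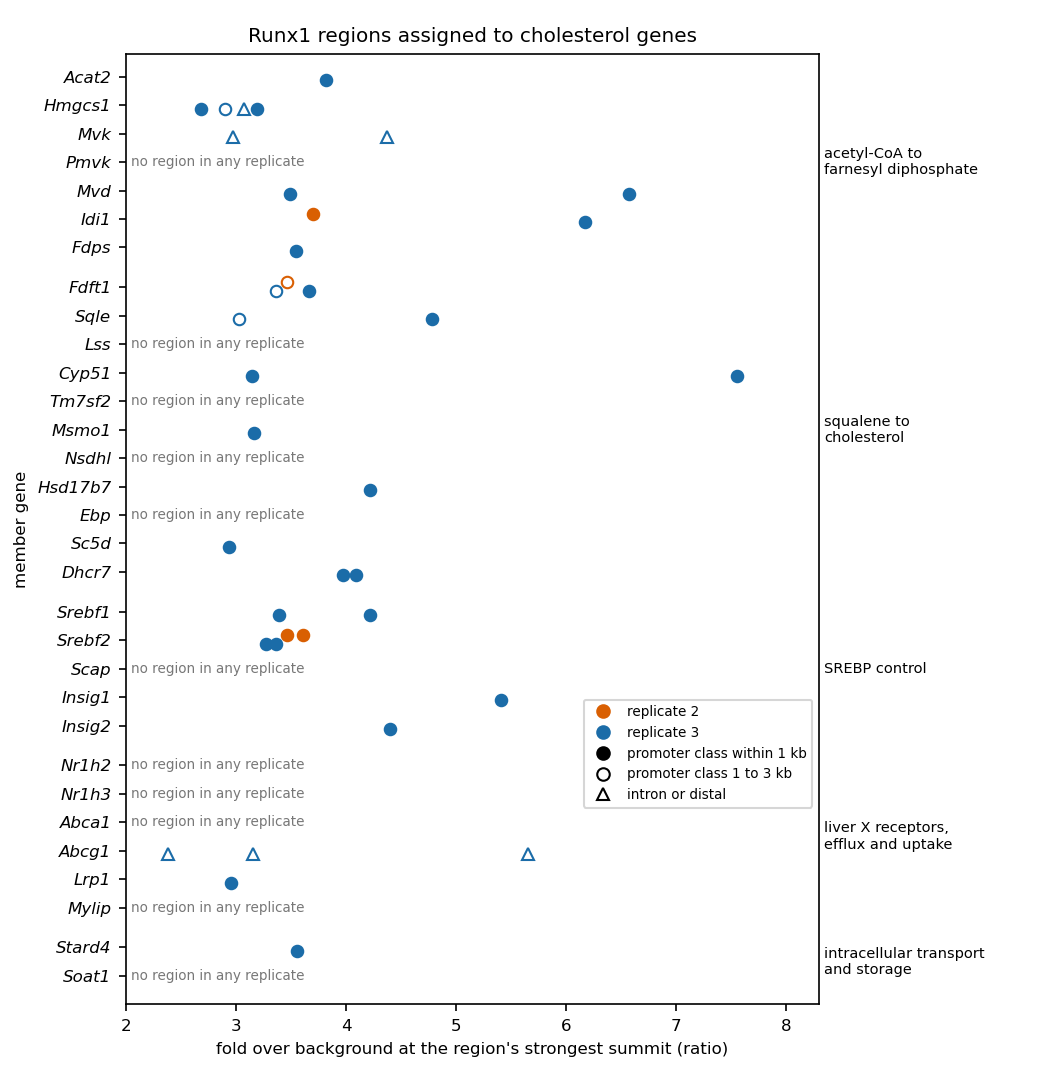
Fold over background of every region (strongest summit) assigned to each of the 31 genes (horizontal axis, ratio), in replicate 2 (orange) and replicate 3 (blue), with genes ordered by role. Filled circles are regions within 1 kb of a start site, open circles 1 to 3 kb away and triangles intronic or distal; Cyp51 at 7.55 is farthest to the right, 11 genes had no region, and replicate 1 had none at any of the 31.

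Genes that control SREBP had regions at 4 of 5 members in replicate 3 (80.0%, against 31.5% of coding genes). Insig1 and Insig2 encode the proteins that retain the SREBP and Scap complex. The Insig1 region on chromosome 5 (28070656 to 28072381) was the widest of the 31 genes at 1726 bp, with 4 summits and a fold of 5.41 from 58 fragments (counting interval 4.13 to 6.97) at the 84.5 percentile. Insig2 had 1 promoter region (chromosome 1, 121327694 to 121328167), and its fold was 4.40 from 47 fragments at the 68.0 percentile. Srebf1, which encodes the SREBP proteins that act mainly on fatty acid synthesis and also take part in sterol synthesis, had promoter regions at 2 start sites with folds of 4.22 and 3.39. Scap, the escort of SREBP to the Golgi, had no region. The Insig folds exceeded those at either SREBP gene within the list of replicate 3, but their counting intervals overlapped.

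Srebf2 (ENSMUSG00000022463), which encodes the SREBP protein most concerned with cholesterol synthesis, had overlapping regions in replicates 2 and 3 near its start, and a further region in all 3 replicates inside the gene. Near the start on chromosome 15, replicate 2 had folds of 3.46 (82146941 to 82147312, 21 fragments) and 3.61 (82148585 to 82148953, 16 fragments). Replicate 3 had folds of 3.27 (82146546 to 82147326, 28 fragments) and 3.36 (82147972 to 82149003, 20 fragments), and each region of replicate 2 lay wholly within a region of replicate 3. All 4 lay at or below the 30.9 percentile of their lists.

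The region inside Srebf2 was assigned by the authors to Gm49502, whose start is 13955 to 14442 bp away, although their location class places it in an exon of Srebf2. It ran from 82170636 to 82171074 in replicate 1, from 82170544 to 82171561 in replicate 2 and from 82170635 to 82171231 in replicate 3, with 439 bp common to all. Its strongest summits lay 23495, 23493 and 23604 bp downstream of the RefSeq start and within 111 bp of each other. The folds were 4.45 (16 fragments, counting interval 2.66 to 7.07), 5.94 (25 fragments, interval 3.92 to 8.66) and 3.93 (27 fragments, interval 2.64 to 5.65), at the 34.6, 94.1 and 54.3 percentiles. This was the only region on any of the 31 genes found in every replicate when genes were assigned by RefSeq gene body with 1 kb on each side. By that assignment 1 of the 31 genes had a region in all 3 replicates, against 1.17% of coding genes. These gene counts do not require the regions to overlap. A further region of replicate 3 with a fold of 3.04, assigned to Shisa8, lay near the end of Srebf2.

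**Figure D3:**
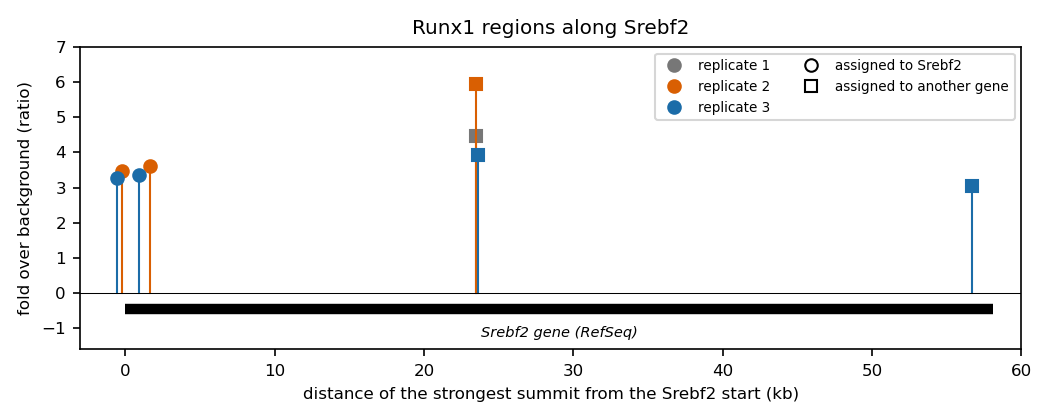
Fold over background (vertical axis, ratio) of each region on or beside Srebf2 against the distance of its strongest summit from the RefSeq start (horizontal axis, kb), in replicates 1 (grey), 2 (orange) and 3 (blue). Circles are regions assigned to Srebf2 and squares regions assigned to another gene; the black bar is the gene, and the 3 replicates meet at the region inside it with folds of 4.45, 5.94 and 3.93.

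Assignment by gene body gave 1, 3 and 21 of the 31 genes in replicates 1, 2 and 3, against 1.91%, 6.23% and 36.5% of coding genes, and 3 genes in at least 2 replicates, against 6.68%. In replicate 1 the gene was Srebf2. In replicate 3 it added Nr1h3, which encodes liver X receptor alpha, through a region with a fold of 6.14 at the promoter of the neighbouring gene Madd, 540 bp beyond the end of Nr1h3. Mvk had a region over its own start (chromosome 5, 114443794 to 114444484; fold 4.12, 40 fragments), which the authors assigned to Mmab, a gene of cobalamin metabolism that starts beside it. Both genes share that region, and the data do not separate them.

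Genes of liver X receptors, sterol efflux and uptake numbered 6, of which 2 had a region in replicate 3 (33.3%, interval 9.68 to 70.0), close to the 31.5% of all coding genes. Abcg1, a transporter that exports cholesterol to lipoproteins, had 3 regions in replicate 3, all distal and upstream on chromosome 17, at 36016, 32724 and 20908 bp from its start. Their folds were 3.15, 5.66 and 2.38, and the middle one (31023982 to 31024974, 3 summits, 34 fragments) was at the 87.1 percentile. Within the gene, replicate 3 had 3 more regions, of which 2 were assigned to Gm25447 and 1 to Tff3, with folds of 3.93, 2.85 and 4.73. Lrp1, an endocytic receptor for lipoproteins, had a promoter region with a fold of 2.95. No region was assigned to Nr1h2 or Nr1h3, the liver X receptor genes, to Abca1, a cholesterol exporter, or to Mylip, a ubiquitin ligase that removes lipoprotein receptors. Stard4, a sterol carrier, had a promoter region in replicate 3 with a fold of 3.56, and Soat1, which esterifies cholesterol for storage, had none.

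The regions of the 31 genes lay mostly at promoters. In replicate 3, 24 of the 33 regions (72.7%, interval 55.8 to 84.9) were in the promoter class within 1 kb, against 62.6% of all regions, and in replicate 2 they were 3 of 4, against 71.4%. The promoter share averaged 73.9% ± 1.61 (SD, n = 2) over the replicates that had such regions. This SD leaves out counting error, and the interval of the share in replicate 2 was 30.1 to 95.4. Introns held 1 of the 33 (3.03%, interval 0.537 to 15.3), against 15.8% of all, and distal intergenic sequence 5 (15.2%), against 9.67%, all of them at Mvk and Abcg1. The assigned start site lay inside 17 of the 33 (51.5%), against 43.6% of all regions, and the median width was 471 bp, against 470 bp.

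The median fold of the members' regions was 3.49 in replicate 3, against 3.81 over all regions, with percentiles of 0.288 to 96.1 and a median percentile of 36.7. In replicate 2 the median was 3.54, against 4.01, with percentiles of 19.8 to 33.5. Taking the strongest region of each gene in replicate 3, the median fold was 4.15 over the 20 genes, against 4.04 over the 6887 coding genes with a region. The direction of the difference from the background thus depended on whether regions or genes were counted. Of the 20 genes, 10 had at least 2 regions, against 25.6% of coding genes with a region, and 2 had at least 3 (10.0%), against 10.7%.

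**Figure D4:**
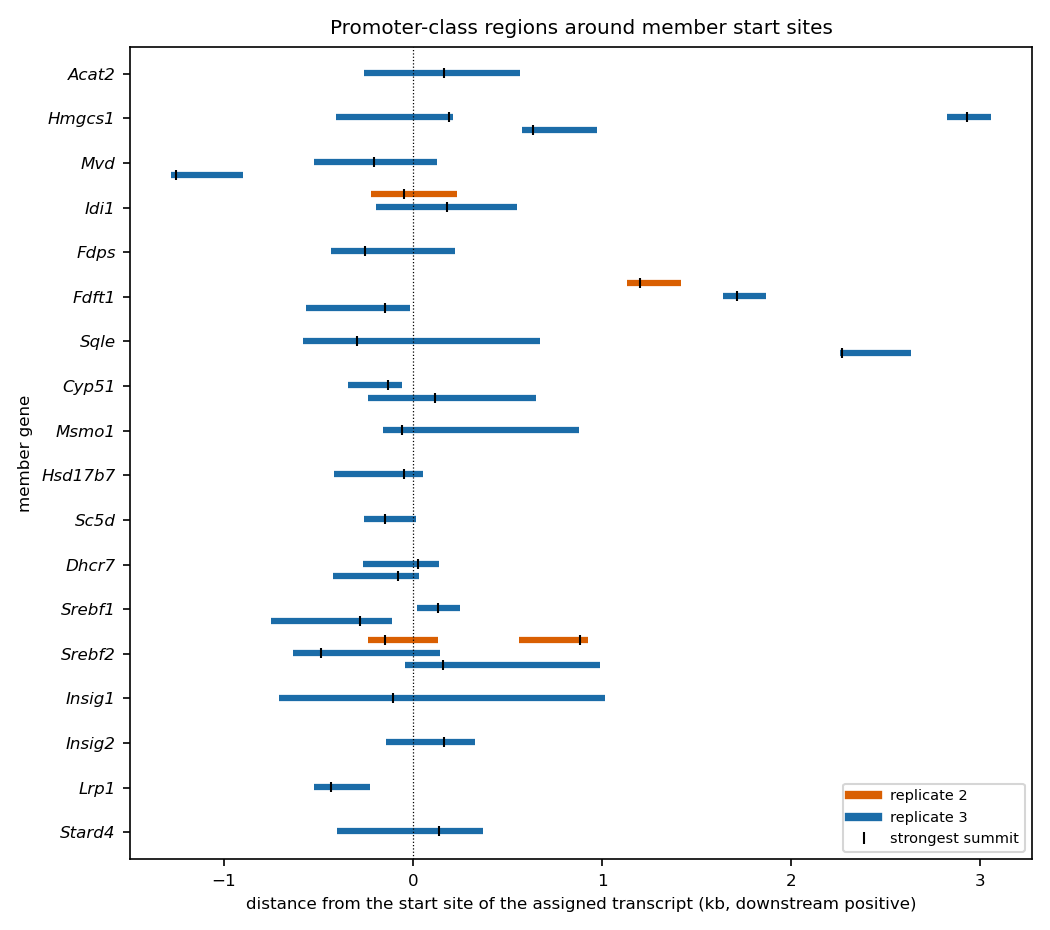
Extent of the promoter-class regions of each gene (horizontal axis, kb from the start site of the transcript the authors assigned, downstream positive), in replicate 2 (orange) and replicate 3 (blue); ticks mark the strongest summit. Regions of a gene with several start sites are drawn each against its own start; in replicate 3 most bars cross the dotted line at 0, and Hmgcs1, Mvd, Fdft1 and Sqle have further regions about 1 kb or more from it.

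Of 36 other genes of sterol and fatty acid metabolism, 2 had a region in replicate 1 (5.56%, against 1.51% of coding genes), 2 in replicate 2 (5.56%, against 5.17%) and 26 in replicate 3 (72.2%, interval 56.0 to 84.2, against 31.5%). In at least 2 replicates there were 3 (8.33%, against 5.43% of coding genes). The share in replicate 2 was close to that of all coding genes. Scd2, the main stearoyl-CoA desaturase of the nervous system, had a promoter region in every replicate, with folds of 3.73, 5.02 and 5.90 (chromosome 19, 44293708 to 44294125 as called in replicate 1). Fasn, fatty acid synthase, had folds of 3.55 and 4.14 in replicates 2 and 3, and Mbtps1, the protease that makes the first cut in SREBP, had 4.08 and 3.56 in replicates 1 and 3. Lipa, the lysosomal lipase that frees cholesterol from its esters, Osbp, an oxysterol-binding transfer protein, and Gramd1b, which moves sterol from the plasma membrane, had folds of 7.05, 6.91 and 5.80 in replicate 3. The Lipa fold was at an exon, 3680 bp from the start, and the Lipa region over the start had a fold of 2.76. Among these genes the region of Scd2 was called in more replicates than any promoter region of the 31 members.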

How the data were processed

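Each of the 3 replicates has its own list of regions. The submitters' processing notes name the mouse build GRCm38 and these tools: MACS2 2.1.2 and also Picard 2.18.26, SAMtools 1.9, Bowtie2, FastQC and Trimmomatic 0.38. Neither the settings nor the control library are stated in the material used. Every summit in the deposited lists carries the peak caller's score, its fold (a ratio to local background), its −log10 p and its −log10 q, all by the authors. The authors' annotated tables, as deposited, add the signed distance to the start site (a whole-number score) and the gene each region was assigned to. Positions are given counting from 1.

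A region took the fold of its strongest summit. Fragment numbers were solved from fold and −log10 p under a Poisson model, to within 0.001; this recovered 100% of 500 simulated summits, and 100% of the deposited summits tried in each replicate. Counting intervals are exact Poisson intervals at 95% and cover counting error only. Percentiles are ranks of fold within a list. Coding genes came from the RefSeq table of GRCm38.p6, and promoter sequences from RefSeq; coding symbols of the regions matched for 98.9%, 99.7% and 99.2% of coding regions. Intervals of shares are 95% Wilson intervals. No test was made, since there is 1 group and the members and gene lists were chosen with earlier results of these data known. All 31 members are named; full values go to genes with regions in at least 2 replicates and to the 6 others ranking highest in replicate 3, and of the other pathway genes 6 are named, ordered by the number of replicates with a region and then by the percentile of fold in replicate 3. Alternatives were stricter limits, overlap rules, equal list lengths, gene-body assignment and leaving out each replicate. The software was matplotlib 3.10.9, scipy 1.17.1, pandas 2.3.3 and numpy 2.4.6 under Python 3.11.15.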

Additional observations from a re-analysis of the deposited data

How the results depend on the processing

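Of 34 alternatives, 20 left the values within 1.5 times of a count or within the spread of a share or fold. Some of these could not have moved and do not measure stability. Replicate 1 had 0 regions assigned to the members, so stricter limits had to leave its count at 0. For the same reason, leaving out replicate 1 could not change the promoter share or the count in at least 2 replicates. In replicate 2 the count of 3 genes fell to 0 with a q of at most 1e-05, to 0 at a fold of at least 5 and to 0 among the 451 regions of lowest q. In replicate 3 the count of 20 became 5 at a fold of at least 5 and 1 at equal list lengths. By gene body, 1 gene had a region in replicate 1 and 1 gene in all 3 replicates. Genes with regions in at least 2 replicates numbered 3. They numbered 1 (Srebf2) with any summits of the regions, not the strongest alone, within 200 bp. The strongest summits of the Srebf2 pairs lay 335 and 739 bp apart. The count was 0 with a q of at most 1e-05 and 0 at a fold of at least 5. It was 0 to 3 on leaving out each replicate, with 0 without replicate 2 and 0 without replicate 3. The promoter share was 89.5% with a q of at most 1e-05 and 80.0% at a fold of at least 5, each from replicate 3 alone. Both lay outside the spread used for this share, an SD of 1.61 from 2 replicates that leaves out counting error. Shorter lists by construction hold fewer genes. No paired analysis was possible because all replicates belong to 1 group. Read depth is not known here, and absence from a list does not show absence of Runx1. Gene-body counts for at least 2 and for all 3 replicates were chosen after the data were seen.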

Other observations

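The 11 genes without an assigned region in any replicate differed in how far the nearest region of replicate 3 lay from the RefSeq gene. It was 540 bp for Nr1h3 (region of Madd), 1392 bp for Tm7sf2 (region of Znhit2) and 9127 bp for Ebp (region of Tbc1d25). It was 18631 bp for Abca1, 23177 bp for Scap, 24080 bp for Pmvk and 35247 bp for Nr1h2. It was 49272 bp for Nsdhl, 88736 bp for Lss, 95467 bp for Mylip and 244157 bp for Soat1. The region nearest to Soat1 was assigned to Fam20b.

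Several member promoters lie beside other transcripts. In replicate 3, regions of Acat2, Dhcr7, Hsd17b7, Insig1 and Mvd lay within 1 kb of another RefSeq gene, namely Gm15946, Nadsyn1, 3110045C21Rik, Gm35223 and, at Mvd, 9330133O14Rik and Gm20735. A region over such a promoter belongs to either gene by position.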
